A study of Homo sapiens with 8 samples.

Results

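The genes described here are 10 components and targets of the Hippo pathway: the YAP/TEAD target genes CCN1, CCN2, ANKRD1 and AMOTL2, the scaffold gene AJUBA, the kinase genes LATS1 and LATS2, the coactivator genes YAP1 and WWTR1, and TEAD1. They were taken by name, as every array feature that has values in all 8 samples and is annotated to exactly 1 gene, equal to one of these symbols. Of 20 features annotated to them, 14 had values, in 8 of the 10 genes, out of 25094 features with values on the array. The only features of ANKRD1 and LATS1 had no value in any sample, as did 1 of 4 CCN1 features, 1 of 2 LATS2 features and 2 of 5 WWTR1 features.

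All samples were HEK293 cells, an established line made from human embryonic kidney with DNA of adenovirus 5. The cells had been transfected with linearised pBudCE4.1, a plasmid vector, whose insert was an intronic KLHL29 transcript placed either as sense or as antisense. Zeocin-resistant cells were kept as a mixed population, and each construct was sampled 4 times by thawing frozen cells of 1 transfection. The p-values therefore measure the spread between thawed cultures, and the construct cannot be told apart from the pool that carries it. Cells with an empty vector or with none were not analysed here, and each difference below is sense minus antisense, with neither as a baseline. Of 2 features annotated to KLHL29, 1 had values, under the detection limits, and whether it overlaps the insert is unknown, so it does not check the labels. Replicates 1 and 3 of each construct were labelled with Cy3, and replicates 2 and 4 with Cy5.

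The Hippo pathway is a kinase cascade that restrains growth. LATS1 and LATS2 phosphorylate YAP1 and WWTR1 (also called TAZ), which keeps both coactivators out of the nucleus. When the kinases are inactive, the coactivators bind TEAD proteins on DNA and switch on genes such as CCN1, CCN2 and ANKRD1, and cell density, cytoskeletal tension and serum all feed into this switch. CCN1 and CCN2 are also induced by serum through other factors, among them AP-1 and SRF.

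All 8 samples were closely alike over the 21451 features detected in every sample (pairwise r between 0.960 and 0.996, taken across features, which do not count as replicates). Sense 4 stood furthest from its group, with a median absolute deviation from the construct mean of 0.26 (log2), against 0.093 to 0.21 in the other samples. Of 8 genes that HEK293 cells are reported to express, 6 were detected, among them NEFL, NEFM, VIM and KRT18, while PAX2 and SOX11 were not. Of markers of other cell types, COL1A1 was the 1 detected of 5 measured fibroblast genes and CD3E of 2 leukocyte genes, and 0 of 4 endothelial genes were detected. All 14 features of the Hippo set lay above the inferred detection limits in all 8 samples. The precision is set by having 4 samples per construct. Replicates 1 and 2, and replicates 3 and 4, of a construct differed in dye and had nearly equal median intensities (579 and 579, 590 and 590, 571 and 571, 548 and 549 units). Whether such pairs shared an array is not stated in the labels, and if they did, n = 4 would stand for fewer independent arrays. With these pairs as a random block the limma adjusted p of CCN2 was 0.23, against 0.0999 without it, and that of CCN1 feature 5539 was 0.53, against 0.25. In bulk RNA a change in the share of expressing cells and a change in RNA per cell cannot be told apart.

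CCN2, which encodes a secreted matricellular protein and is a classic target of YAP and TEAD, had the largest difference of the set. Its feature 21464 read 799, 617, 522 and 790 intensity units over sense replicates 1 to 4, against 121, 171, 309 and 254 over antisense replicates 1 to 4. Every sense sample was above every antisense sample, and antisense 1 was lowest. The mean was 29.32 ± 0.30 in sense and 27.58 ± 0.60 in antisense (log2 intensity, SD, n = 4), a difference of 1.74 (SE 0.29, 95% interval 1.10 to 2.38), or 3.34-fold. The difference was nearly identical within Cy3 (1.74) and within Cy5 (1.74). It ranked 26 by p among all 25094 features, with an unadjusted p of 0.00011 in limma, but it missed the threshold after adjustment (adjusted p = 0.0999). Of the 21451 detected features, 7 had a positive difference at least this large, CCN2 included.

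The stretch before the start of CCN2 is shown because it carries the letters that TEAD proteins are known to recognise, GGAATG, in 3 copies. In the 250 bases before the annotated start (GRCh38.p14, chr6:131951373-131951622, minus strand, written 5′ to 3′ toward the gene), the capitals mark each copy.
CCN2: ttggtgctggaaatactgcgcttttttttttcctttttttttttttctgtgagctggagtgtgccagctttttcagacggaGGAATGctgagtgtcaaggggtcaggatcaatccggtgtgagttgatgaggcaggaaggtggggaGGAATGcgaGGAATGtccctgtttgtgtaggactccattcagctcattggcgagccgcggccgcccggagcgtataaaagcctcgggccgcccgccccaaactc
The copies began 169, 104 and 95 bases before the start. Of 35116 windows of this length before annotated starts, 11.9% held the motif on either strand, and 29 of them (0.0826%) held 3 or more copies.

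Of the 10 genes, 8 had an entry in the promoter table, with 12 starts between them. CCN1 and TEAD1 had no entry, so no motif could be looked for before them. Of the 8 genes, 5 held GGAATG or its reverse complement CATTCC in 1 window each (5 of 12 windows, against 11.9% of all windows). The other 4 are shown as 30 bases around their first copy, in capitals, to set beside CCN2. The ANKRD1 stretch is chr10:90921290-90921319 (minus strand), and a second copy lay nearer the start. That of AMOTL2 is chr3:134374499-134374528 (minus strand), that of AJUBA is chr14:22976884-22976913 (minus strand) and that of YAP1 is chr11:102110273-102110302 (plus strand), each on GRCh38.p14 and written 5′ to 3′ toward the gene.
ANKRD1: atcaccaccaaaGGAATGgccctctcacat
AMOTL2: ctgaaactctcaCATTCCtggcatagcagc
AJUBA: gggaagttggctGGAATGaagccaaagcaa
YAP1: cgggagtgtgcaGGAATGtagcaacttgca
The AP-1 motif TGANTCA was present before ANKRD1 and before 1 start of LATS1, against 6.57% of all windows. The CArG box bound by SRF was found in 0 of the 12 windows, which do not include CCN1, against 1.16% of all windows. A match describes the letters only, and the array does not measure binding.

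**Figure D1:**
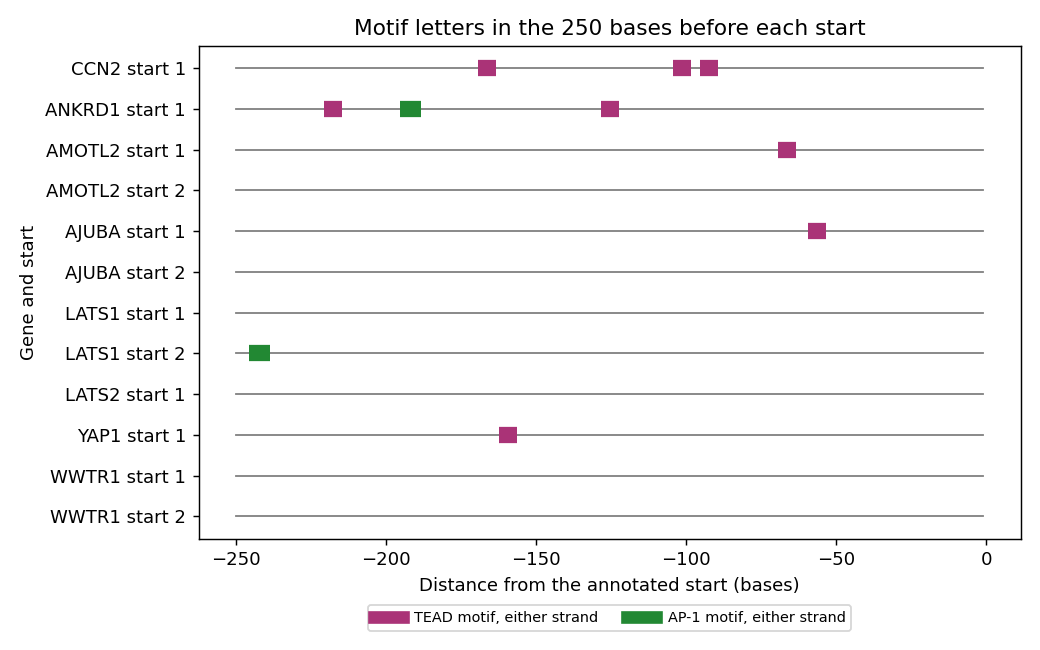
Copies of the TEAD motif (purple) and the AP-1 motif (green) in the 250 bases before each of 12 annotated starts of 8 genes, by distance from the start in bases (horizontal axis). CCN2 carries 3 TEAD motif copies and ANKRD1 carries 2, while LATS2 and both starts of WWTR1 carry neither motif.

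CCN1, the close relative of CCN2 and likewise a secreted matricellular protein, was higher in sense by all 3 of its features. Feature 5539 read 18400, 9990, 15100 and 22900 intensity units over sense replicates 1 to 4, against 6270, 3460, 8750 and 10000 over antisense replicates 1 to 4. The constructs touched at a single point, since antisense 4 lay just above sense 2. The difference was 1.27 (log2, SE 0.33, 95% interval 0.53 to 2.00), or 2.41-fold, with means of 33.89 ± 0.51 in sense and 32.62 ± 0.68 in antisense (SD, n = 4). It did not pass (limma adjusted p = 0.25).

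Feature 13018 of CCN1 differed by 1.28 (SE 0.34) and feature 28401 by 1.08 (SE 0.34), with adjusted p = 0.25 and 0.27 in limma. For feature 13018 the constructs again overlapped between sense 2 (3230) and antisense 4 (3270). For feature 28401 they did not, by a narrow margin, with sense 2 at 5840 and antisense 4 at 5800. The 3 features read the same RNA on the same arrays and ran together over the samples (r = 0.983 to 0.997, 8 samples), so their number is no independent evidence.

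The size of the CCN1 difference varied with the samples used. Antisense 2 gave the lowest antisense reading and sense 4 the highest sense reading on each feature. The difference of feature 5539 rose to 1.55 without antisense 4 and to 1.49 without sense 2. Without antisense 2 it was 0.94, without sense 4 it was 1.01, and without antisense 2 and sense 4 both it was 0.78. The CCN2 difference was 1.59 without both, and neither sample was the extreme of its construct for CCN2.

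AMOTL2, an angiomotin family protein that is both a YAP target and a brake on YAP, differed by 0.43 (log2, SE 0.33, limma adjusted p = 0.52). Feature 4825 read 2350, 2670 and 1940 intensity units in sense 1 to 3, but 7800 in sense 4, against 2230, 2100, 2570 and 2400 in antisense 1 to 4. Only sense 4 lay outside the antisense range by a wide margin, and without it the difference was 0.0010. Within Cy3 the difference was -0.17 and within Cy5, which holds sense 4, it was 1.02.

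**Figure D2:**
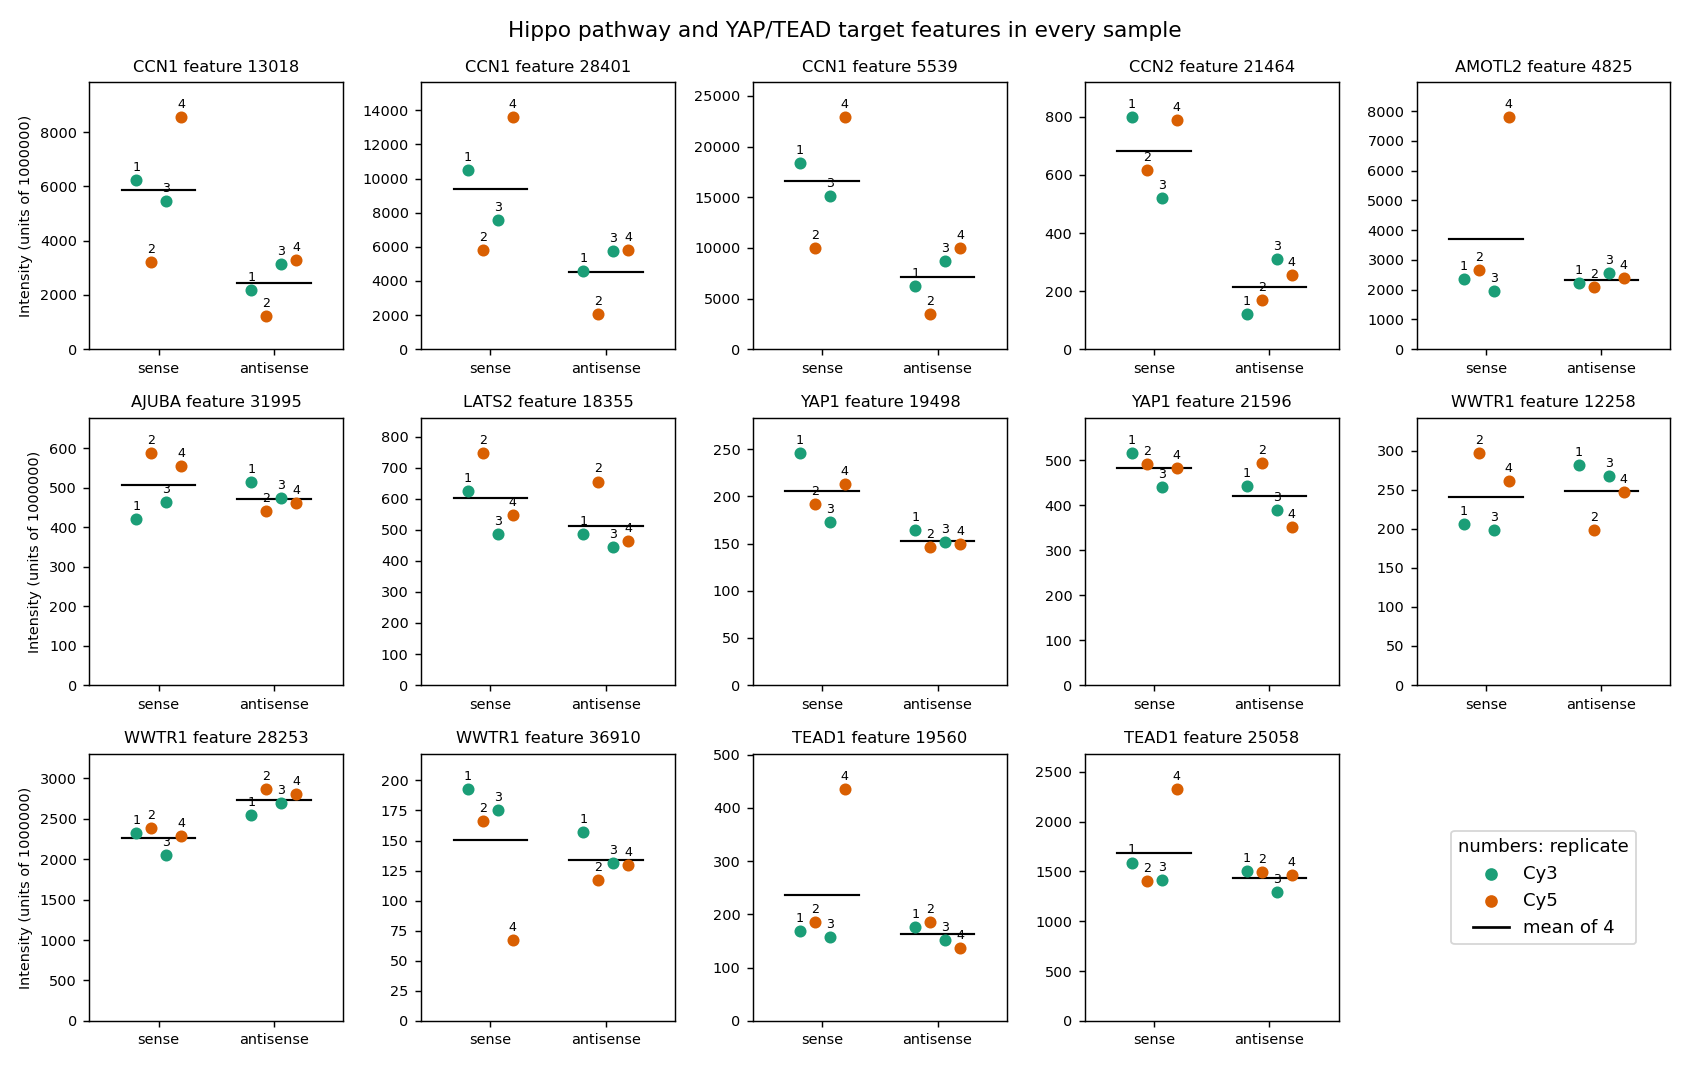
Intensity (vertical axes, linear and from 0, in units of 1000000) of each of 14 features in sense and antisense samples, with the replicate number beside each point, dye as colour and the mean of 4 as a line. CCN2 separates the constructs fully, at 522 to 799 in sense and 121 to 309 in antisense, and for AMOTL2 and TEAD1 the high sense mean comes from sense 4.

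AJUBA, a LIM-domain protein that binds and restrains LATS kinases, differed by 0.09 (log2, SE 0.16, limma adjusted p = 0.80). Its feature 31995 read 420, 588, 463 and 554 intensity units over sense replicates 1 to 4, against 514, 441, 473 and 460 over antisense replicates 1 to 4. The antisense values lay inside the sense range. The 95% interval ran from -0.26 to 0.44, and the sign was negative within Cy3 (-0.16) and positive within Cy5 (0.34).

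LATS2, the kinase that acts on YAP1 and WWTR1 and is itself induced by YAP, differed by 0.23 (log2, SE 0.18, 95% interval -0.16 to 0.62, limma adjusted p = 0.53). Feature 18355 read 625, 748, 487 and 547 intensity units over sense replicates 1 to 4, against 488, 656, 445 and 465 over antisense replicates 1 to 4. Replicate 2 was highest in both constructs, and the constructs overlapped. The difference was similar within Cy3 (0.24) and within Cy5 (0.21). With 1 sample left out it ran from 0.13 (without antisense 4) to 0.33 (without antisense 2).

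YAP1, the coactivator that LATS kinases phosphorylate, had 2 features, both higher in sense without passing. Feature 19498 read 246, 192, 173 and 213 intensity units over sense replicates 1 to 4, against 164, 146, 152 and 149 over antisense replicates 1 to 4. No antisense sample reached the lowest sense sample, and the difference was 0.42 (log2, SE 0.18, 95% interval 0.03 to 0.81, limma adjusted p = 0.33). Feature 21596 read 516, 492, 440 and 482 in sense, and 443, 494, 389 and 351 in antisense. Antisense 1 lay inside the sense range there and antisense 2 just above the second-highest sense value. The difference was 0.21 (SE 0.16, limma adjusted p = 0.52), or 0.11 without antisense 4 and 0.31 without antisense 2.

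WWTR1, which encodes the YAP relative TAZ, was lower in sense by its feature with the highest mean. Feature 28253 read 2320, 2390, 2050 and 2290 intensity units over sense replicates 1 to 4, against 2540, 2870, 2700 and 2810 over antisense replicates 1 to 4. Every sense sample lay below every antisense sample, and the difference was small, at -0.27 (log2, SE 0.11, 95% interval -0.51 to -0.03, or 1.21-fold lower), with a limma adjusted p of 0.33. It was -0.26 within Cy3 and -0.28 within Cy5.

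The other 2 features of WWTR1 did not show this order. Feature 12258 read 199 to 297 intensity units across sense samples and 199 to 281 across antisense samples, and differed by -0.06 (SE 0.20). It had opposite signs in the dyes, -0.44 within Cy3 and 0.33 within Cy5. Feature 36910 read 193, 166 and 175 in sense 1 to 3, but 67.1 in sense 4, against 117 to 157 in antisense. It differed by 0.07 (SE 0.28), and by 0.39 without sense 4. Features 28253 and 36910 thus have opposite signs.

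TEAD1, the DNA-binding partner of both coactivators, had 2 features. Feature 19560 read 168, 186 and 158 intensity units in sense 1 to 3 and 436 in sense 4, against 176, 185, 152 and 137 in antisense 1 to 4. Feature 25058 read 1590, 1400, 1410 and 2330 in sense, and 1500, 1490, 1290 and 1460 in antisense. On both features sense 4 was the highest sample, and the other sense samples lay among or just above the antisense samples. The differences were 0.42 (log2, SE 0.29) and 0.20 (SE 0.17), with limma adjusted p = 0.48 and 0.56, and without sense 4 they were 0.09 and 0.03.

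**Figure D3:**
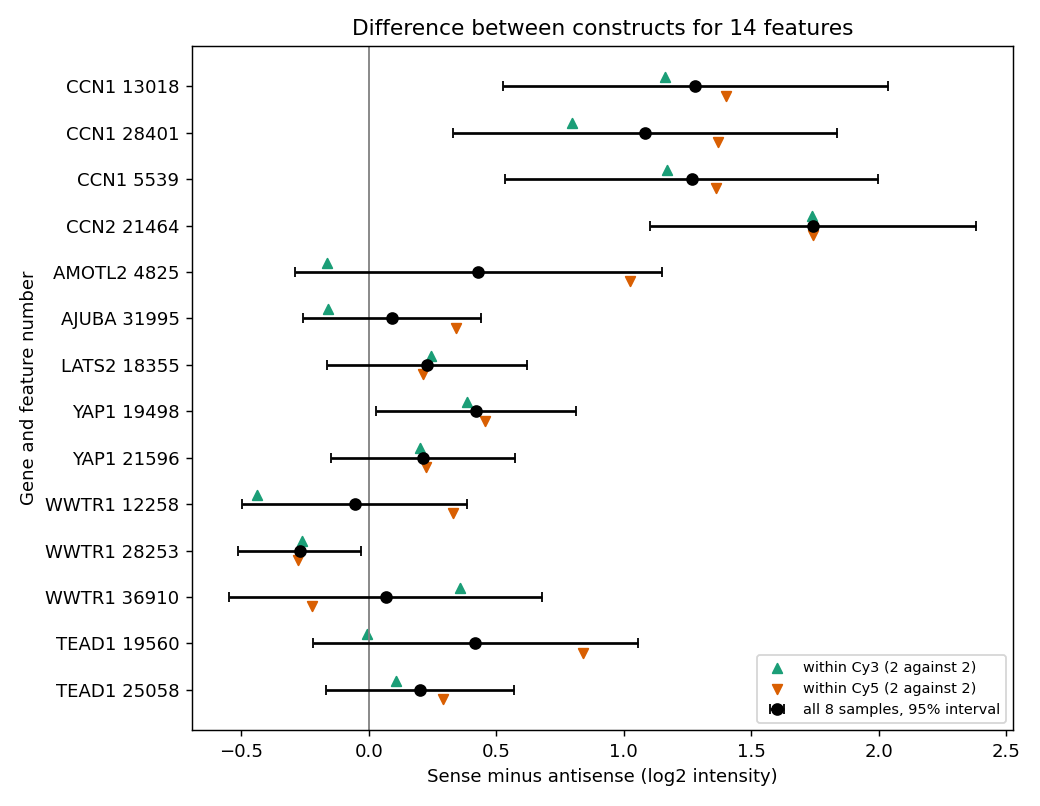
Difference between sense and antisense (log2 intensity, horizontal axis) of each feature over all 8 samples with its 95% interval (black), and within Cy3 (green) and Cy5 (orange), 2 samples against 2. The 3 CCN1 features and CCN2 lie between 1.08 and 1.74, and every other feature lies between -0.27 and 0.43.

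Counted together, 12 of the 14 features had a positive difference, with a median of 0.32 (log2), against 49.4% of the detected features on the array and a median of -0.0038. In limma 0 of 14 passed the threshold, where 0.0677% of all features passed, 8 higher and 9 lower in sense (7 and 5 after quantile normalization). An unadjusted p under 0.05 was reached by 6 of the 14, those of CCN1 and CCN2, YAP1 19498 and WWTR1 28253, against 14.2% of all features. Counted by gene, each by its feature with the highest mean, 7 of 8 were positive, with a median of 0.22. Of the genes detected in all samples, 47.5% were positive. By gene, 3 of 8 had an unadjusted p under 0.05, against 15% of all genes. The constructs did not overlap, with sense higher, on 3 features (CCN1 28401, CCN2 and YAP1 19498), against 3.35% of all features. They did not overlap with sense lower on 1 feature (WWTR1 28253), against 3.04%.

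The analysis stated in the series' design text was rebuilt on 6 samples. In each construct, the sample left out was that without which the other 3 had the lowest mean coefficient of variation. These were sense 4 and antisense 2. The choice used the same values and lowers the spread within constructs, and the rates and p-values on these samples do not allow for it. CCN2 was called higher at the stricter false discovery rate of at most 5.4%, at a difference of 1.59. It was the 1 feature of the set called higher, against 1.6% of all features, and 0 of the 14 were called lower, against 0.207%. At 10.3%, CCN1 features 5539 and 13018 were called higher as well, at 0.78 and 0.77. These 3 features compare with 4.4% of all features called higher at this rate, and 0 of the 14 were called lower, against 1.77%. On the same 6 samples limma called CCN2 alone of the 14 (adjusted p = 0.037), against 4.25% of all features.

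The count of calls differed between the dyes. With the 2 Cy3 samples of each construct alone, limma called all 3 CCN1 features and CCN2, against 11.5% of all features (adjusted p = 0.015 for CCN1 5539 and 0.039 for CCN2). With the Cy5 samples alone it called 0 of the 14, against 0.0159% of all features. The differences of CCN1 and CCN2 themselves were as large in Cy5 as in Cy3, at 1.36 and 1.74. The Cy5 samples include sense 4 and antisense 2, so the dye and these samples cannot be told apart here.

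The upstream regulators of the pathway, from the MST kinases to the protocadherins, were split in direction. In these lists each gene stands for its feature with the highest mean. Of 28 listed genes 24 were measured, all detected, with 11 positive and 13 negative differences and a median of -0.03. The median was -0.05 over all 13469 genes and -0.02 over the genes detected in all samples. In limma 0 passed, against 0.0594% of all genes, and 3 had an unadjusted p under 0.05, against 15% of all genes. At the stricter rate the stated design called 1 higher, against 1.48% of all genes. That gene was DCHS1, a protocadherin, which read 128, 190, 160 and 284 intensity units over sense replicates 1 to 4, against 84.5, 158, 80.7 and 95.5 over antisense replicates 1 to 4, overlapping through antisense 2. It differed by 0.86 (log2, SE 0.22, limma adjusted p = 0.25).

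FAT1, another large protocadherin, differed by 0.40 (log2, SE 0.12), and its sense samples (1950 to 2320 intensity units) all lay above its antisense samples (1520 to 1710). NF2, which encodes merlin, an activator of LATS kinases, differed by -0.44 (SE 0.14) on its feature with the highest mean and by -0.14 to -0.32 on its 3 others. AMOT, the first angiomotin, differed by -0.32 (SE 0.17). SIK3, a kinase reported in flies to oppose the pathway, was called lower at 10.3%, as were 1.67% of all genes, on feature 43016 (-0.29), while its other feature differed by 0.24. MAP4K4, a kinase that activates LATS kinases, differed by 0.15 on its feature with the highest mean and by 0.23 to 0.69 on its 3 others, of which feature 2132 was called higher at 10.3%. None of these 5 genes passed in limma, with adjusted p from 0.27 to 0.50 on the features with the highest mean.

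TEAD2, TEAD3 and TEAD4 differed by -0.04, 0.05 and -0.09 (log2). VGLL4, a cofactor that competes with YAP for TEAD proteins, differed by 0.31 (SE 0.14), and by 0.51 (SE 0.18) on its other feature, which separated the constructs. Its relative VGLL3 differed by -0.18 (SE 0.16). VGLL1 lay under the detection limits. Over these 6 genes 0 passed in limma, 2 had an unadjusted p under 0.05 (VGLL4 and the undetected VGLL1, against 15% of all genes), and the stated design called 0 by these features, though it called that other VGLL4 feature higher at 10.3%.

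Other reported targets of YAP and TEAD were divided evenly. Of 20 listed genes 16 were measured and 11 detected in all samples, with 8 positive and 8 negative differences and a median of 0.01. In limma 0 passed and 4 had an unadjusted p under 0.05, against 15% of all genes. The stated design called 2 higher at 5.4%, against 1.48% of all genes, and 4 at 10.3%, against 4.32%. GADD45A, a stress-induced growth arrest gene, differed by 1.04 (SE 0.31), with 27800 intensity units in sense 4 where the other sense samples read 5920 to 9410 and the antisense samples 3860 to 6680. CCDC80, a secreted matrix protein, differed by 0.57 (SE 0.23).

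MYOF, a membrane repair protein, was detected in sense only, at least 1.16-fold higher, by 1 of its 2 features. The inferred limits were unequal, at 24.2 to 47.9 intensity units in sense samples and 47.0 to 72.3 in antisense samples. Antisense 2 read 60.6 for MYOF, under its own limit of 68.6 but above every sense limit. On the whole array 99 features were detected in sense only and 4 in antisense only. TGFB1, a growth factor, differed by 0.25 (SE 0.30) on the feature with the highest mean and by -0.01 to 0.62 on the 9 others. The stated design called 6 of those 9 higher at 5.4%, against 1.6% of all features. That design leaves out sense 4 and antisense 2. On the TGFB1 feature with the highest mean these read 95.6 and 202 intensity units, the lowest sense and the highest antisense value. Its difference was 0.85 within Cy3 and -0.35 within Cy5. BIRC5, which encodes the mitotic protein survivin, was lower on all 10 of its features, by -0.29 to -0.46. Of these features 4 were called lower at 10.3%, against 1.77% of all features. Features of the same gene repeat a measurement in the same samples, so the feature counts of BIRC5 and TGFB1 carry no added weight. THBS1, a matricellular protein often listed beside CCN1 and CCN2, differed by -0.05 (SE 0.17). None of these genes passed in limma. Of the other CCN family genes, CCN3 alone was detected, while CCN4, CCN5 and CCN6 lay under the limits in both constructs. It differed by 0.48 (SE 0.41), and read 228 in both sense 2 and antisense 2 and 459 in sense 4, against 59.9 to 84.4 in the other samples.

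Cytoskeletal targets of SRF and its MRTF cofactors, a programme that shares CCN1, CCN2 and ANKRD1, had 7 positive and 3 negative differences among 10 measured of 14 listed, with a median of 0.11. All 10 were detected, and 47.5% of the genes detected in all samples were positive. In limma 0 passed and 3 had an unadjusted p under 0.05, against 15% of all genes, and the stated design called 1 higher at 5.4%, against 1.48%. ACTA2, smooth muscle actin, read 765, 1410, 822 and 1620 intensity units over sense replicates 1 to 4, against 379, 765, 382 and 372 over antisense replicates 1 to 4, so that the constructs met at sense 1 and antisense 2. It differed by 1.28 (log2, SE 0.22, adjusted p = 0.0999). CNN1, a calponin of smooth muscle, differed by 0.86 (SE 0.26), VCL, the focal adhesion protein vinculin, by 0.33 (SE 0.13), and TAGLN, an actin-binding protein, by 0.45 (SE 0.27). VCL differed by 0.15 on its other feature. CNN2, another calponin, differed by 0.04 on its feature with the highest mean and by 0.23 on its other, which was called higher at 10.3%.

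AP-1 subunits, which act with TEAD proteins at many enhancers, were all positive, 7 of 7 measured among 8 listed, with a median of 0.92. All 7 were detected, and 47.5% of the genes detected in all samples were positive. In limma 0 passed and 4 had an unadjusted p under 0.05, against 15% of all genes. The stated design called FOSB, JUN and ATF3 higher at 5.4%, against 1.48% of all genes, and JUNB also at 10.3%, against 4.32%. The other feature of JUNB was called at 5.4%. ATF3 differed by 1.61 (SE 0.31), JUN by 0.92 (SE 0.18), JUND by 0.55 (SE 0.17) and FOSB by 2.21 (SE 0.68). The subunits did not share one order over the samples. ATF3 read 27000, 13000, 18700 and 41800 intensity units over sense replicates 1 to 4, against 6730, 6300, 7910 and 9430 over antisense replicates 1 to 4, which is the sample order of CCN1 feature 5539 in both constructs. JUND, like CCN1, was highest in sense 4 (23600 against 13800 to 15800 in the other sense samples). Unlike CCN1, it was highest in antisense 2 (12600) and lowest in antisense 4 (10100) among antisense samples. FOSB was lowest in sense 4 among sense samples (1010 against 3100 to 13600) and, like CCN1, lowest in antisense 2 among antisense samples (148 against 1490 to 2130). Whether AP-1 or SRF has a part in the CCN1 and CCN2 differences was not tested.

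**Figure D4:**
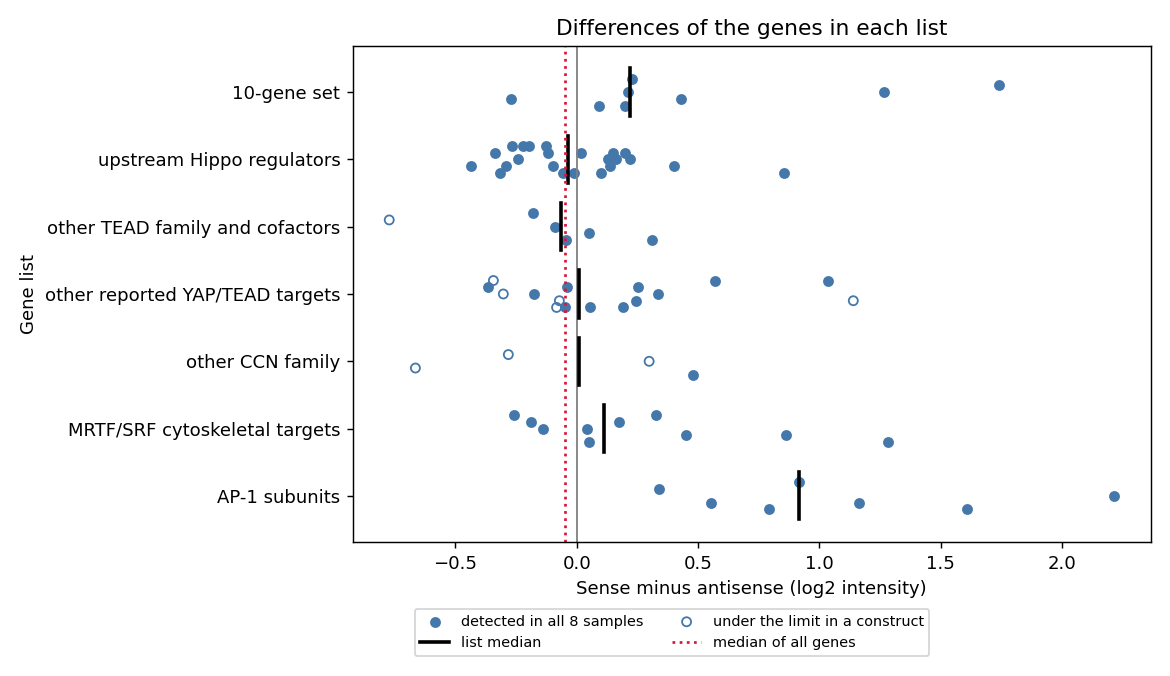
Sense minus antisense (log2 intensity, horizontal axis) for the genes of each list (vertical axis), each by its feature with the highest mean, with open points for genes under the detection limit in at least 1 construct, the list median in black and the median of all genes in red. The 7 AP-1 subunits all lie above 0, while the upstream Hippo regulators and other reported YAP/TEAD targets lie on both sides.

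The genes whose levels ran most like those of CCN1 and CCN2 were ranked by Pearson's r of log2 values over the 8 samples, among 11619 other detected genes. As a description, CCN1 was most like UBAP1L (r = 0.975), RNF103 (0.965), ZNF264 (0.963), FGD5-AS1 (0.961) and BTG1 (0.957). CCN2 was most like DOCK1 (0.988), ATXN7L2 (0.970), LRRC8E (0.958), IL20RB (0.956) and TRMT44 (0.956). All 8 points share the construct and the arrays, and the genes named are the extremes of a long ranking.

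With the construct means taken out, so that only the spread within constructs counts, CCN1 was most like PIGY (r = 0.981), the early phosphatase gene DUSP1 (0.981), RANBP17 (0.980), SLC6A15 (0.974) and EP400 (0.967). CCN2 was then most like COL26A1 (0.978), TCF7L1 (0.958), C16orf86 (0.955), DOCK1 (0.951) and AP3M2 (0.945). DOCK1, which encodes a guanine nucleotide exchange factor for Rac, was the 1 gene in both lists of CCN2. It differed by 0.33 (log2, SE 0.12, limma adjusted p = 0.32). CCN1 and CCN2 themselves correlated at 0.858 over the 8 samples and at 0.589 with the construct means taken out.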

How the data were processed

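Gene expression was measured in 8 samples on Agilent oligonucleotide arrays. The submitters' processing notes name Agilent Feature Extraction 9.5 for reading the scans. By the series' design text, expression meant a signal above the negative controls' mean plus 3 SD, features expressed in only some samples of a construct were dropped, and signals were scaled by a 40% trimmed mean. The deposited values are linear intensity values, given here in units of 1000000. For absolute scale, background correction and dye correction, nothing is given in the sources used here. Genes were named from the platform annotation, with symbols checked by gene ID.

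The log2 values of all 25094 features with values were fitted with limma 3.58.1 (R 4.3.3; lmFit, eBayes with a mean-variance trend; construct and dye), with Benjamini-Hochberg adjustment over all of them and a threshold of 0.05. Every adjusted p is from limma. The stated design was rebuilt as two-class SAM (significance analysis of microarrays) on 6 samples with 20 label permutations, false discovery rates of at most 5.4% or 10.3%, and at least 1.4-fold. Each sample's detection limit was inferred as the signal rank at which the 4 samples of a construct disagreed on the fewest features. Both scripts were tested on simulated data. Of several features of a gene, that with the highest mean log2 represents it in lists. All 14 features of the set are described. From each other list, the genes called by the stated design on any feature and up to 4 with the smallest p are named, and THBS1, TEAD2 and TEAD3 were added after their values were seen. Alternatives were quantile normalization, no dye term, the replicate number as a block, 1 dye alone, detected features only, no trend, the 6 samples, neighbouring samples as a random block, 64 units added before log2, and each sample left out. The members and lists were chosen with earlier results of these data known. Promoter sequences are from RefSeq (GRCh38.p14).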

Additional observations from a re-analysis of the deposited data

Results flagged for a closer look

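In 2 of the 28 sets of 4 samples that were examined (14 features, 2 constructs), 1 sample lay further from the other 3 than Dixon's criterion allows. Chance marks about 1 in 20 such sets. Both concern sense 4, a sample labelled with Cy5 that was left out when the stated design was rebuilt. TEAD1 feature 19560 read 28.70 (log2 intensity) in sense 4, with the nearest other sense sample at 27.47. WWTR1 feature 36910 read 26.00 in sense 4, with the nearest other at 27.31. The first is high and the second low, and the other features of each gene did not reach the criterion.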

How the results depend on the processing

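CCN2 had a positive difference in all 18 alternatives (1.46 to 2.01) and passed in 3: within Cy3 (1.74), with the 6 samples of the stated design (1.59) and without antisense 3 (2.01, adjusted p = 0.039). The 3 CCN1 features were positive in all 18 (0.53 to 1.55) and passed within Cy3 only. YAP1, LATS2 and TEAD1 25058 kept positive signs in all, and WWTR1 28253 a negative one. AMOTL2 turned to -0.17 within Cy3 and -0.059 with the 6 samples, and AJUBA to -0.16 within Cy3. TEAD1 19560, WWTR1 12258 and WWTR1 36910 also took both signs. The 14 features held 4 calls within Cy3, 1 with the 6 samples, 1 by the stated SAM design, 0 to 1 with a sample left out and 0 in the other limma alternatives. The genes of the other lists held 0 calls in the 8 samples, 14 within Cy3, 12 with the 6 samples and 0 to 1 with a sample left out. These lists had 24, 6, 16, 10, 7 and 4 measured genes. Of all features, 0.0677% were called in the 8 samples, 11.5% within Cy3 and 4.25% with the 6 samples. Over all features, limma called 17, and 2888 within Cy3, 4 within Cy5, 1066 with the 6 samples, 1 among detected features only, 10 without a trend, 5 with the pseudocount, 7 with neighbouring samples as a random block and 4 to 20 with a sample left out. The cause of these changes was not tested. SAM called 453 features at 5.4%, 1550 at 10.3% and 214 with all 8 samples.

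Over all detected features, the replicate numbers showed no steady pairing of the samples. Deviations from the construct means correlated at 0.28, 0.00085, 0.11 and -0.11 between samples of 1 number, and 2 of 8 samples correlated best with their own number. With the replicate block limma called 7 features and 0 of the 14. The adjusted p of CCN1 features 5539 and 13018 was then 0.090 and 0.080, against 0.25 for each without the block. That of CCN1 28401 was 0.26, against 0.27, and that of CCN2 was 0.25, against 0.0999. Correlations over all features cannot tell whether single genes are paired.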
